A study of Mus musculus with 21 samples.

Results

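The serpins are a superfamily of proteins, most of which inhibit proteases. Their members were taken as all gene symbols of the count files that carry a Serpin name with a clade letter from a to i, which gave 62 of 24391 symbols. Clade b was the largest with 27 members, followed by clade a with 24, clade e with 3, clades f and i with 2 each, and clades c, d, g and h with 1 each. They were measured in C57BL/6 mice (C57BL/6J in the methods of the study) on the day of birth (P0), of which 2 were Jak1 KI +/- (KI) and 5 wild type (WT). Each mouse gave 1 RNA library for each of 3 tissues (brain, liver, skin), 21 in all. According to the methods of the study, the KI allele was made by CRISPR-Cas9, exchanges a histidine of JAK1 for aspartic acid and carries 2 synonymous changes beside it, and the line was kept through 1 mosaic male. No agent was given to either genotype. WT mice carry none of the 3 changes, and no library came from mice with the synonymous changes alone. In these libraries the effect of the synonymous changes therefore cannot be told apart from that of the missense change. For mice with the synonymous changes alone, the study reports no abnormal phenotype and a survival like that of WT mice.

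An inhibitory serpin presents an exposed stretch, the reactive centre loop, as bait. When a protease cuts the loop, the serpin changes shape and traps the enzyme in a covalent complex, so the loop sequence largely sets which protease is held. Clade a holds the secreted serpins made mainly by the liver, several of which rise in the acute phase response that interleukin-6 drives through JAK1 and STAT3. Clade b serpins mostly stay inside cells, where they protect epithelia and leukocytes from their own proteases. Antithrombin, heparin cofactor, antiplasmin and the complement inhibitor C1INH belong to the smaller clades c to g, and some members, such as the collagen chaperone of clade h and the hormone carriers of clade a, inhibit no protease.

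Between 26549326 and 38388133 reads per library were counted on genes. The brain library of WT 5 stood apart, with a mean Spearman correlation of 0.9394 with the other WT brains against 0.974 or more for the other 4. The skin libraries differed in epidermal transcripts, and KI 2 and WT 5 held 50.1 and 79.8 CPM (counts relative to a total of 1000000 counts on genes) of keratin Krt10, where the other 5 held between 564 and 3767. By the methods of the study, RNA integrity was lower in the skin samples than in the liver samples, and its part in the skin values was not tested. Neuron markers in the brain, hepatocyte markers in the liver, and keratinocyte and fibroblast markers in the skin were present in every library of that tissue. Counts of Jak1 cannot show the substitution and gave no check of the genotype. The mean log2 CPM of Y-linked genes was 5.03 to 5.46 in the libraries of KI 2 and WT 3. It was 0.14 to 0.48 in those of the other mice, so KI 1 and KI 2 differed in sex. In whole tissue, fewer cells of a type and less RNA per cell cannot be told apart.

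Several serpins are recent gene duplicates, and reads that match more than 1 place in the genome were not counted on a gene. The share of 75-base windows of each transcript found only once in the NCBIM37 (mm9) genome showed where this matters. It was below 80% for 7 members, which are named as uncertain. In clade a these were all 5 copies of antitrypsin, Serpina1a (47.0%), Serpina1b (67.1%), Serpina1c (35.4%), Serpina1d (62.9%) and Serpina1e (79.7%). In clade b they were Serpinb9f (36.3%) and Serpinb9g (59.0%). The other clade a paralogs kept more of their sequence to themselves, down to 87.2% for Serpina3h, and the clade b cluster of Serpinb3a to Serpinb3d had between 95.9% and 99.1%. Serpinb9c, Serpinb9d and Serpinb9e lay just above the line, at 80.4%, 83.2% and 82.7%. Serpinb3b overlaps Serpinb3c and Serpinb2 overlaps Serpinb10 on the same strand, so that reads there can be shared or set aside as ambiguous.

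**Figure D1:**
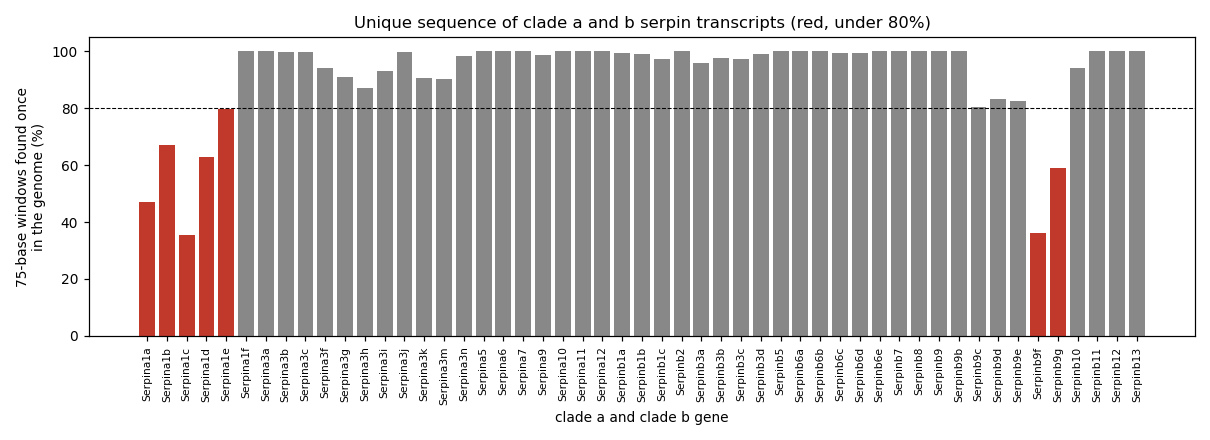
Share of 75-base transcript windows found once in the genome (vertical axis, %) for each clade a and clade b member (horizontal axis), with the 80% line dashed. The 7 red bars are Serpina1a to Serpina1e, Serpinb9f and Serpinb9g, the lowest being Serpina1c at 35.4%.

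The 5 Serpina1 copies show why. Their coding sequences, each of 1242 bases, differ at 86 positions, and 244 of the 1688 windows of Serpina1a occur in all 4 other copies. The stretch where they differ most lies in exon 5 and encodes the reactive centre loop. It is printed to show which reads can be placed on 1 copy, with the 18 positions that differ among the copies in capitals (60 bases from base 1101 of the coding sequence, mm9, 5′ to 3′).
Serpina1a (chr12:105091967-105092026, minus strand): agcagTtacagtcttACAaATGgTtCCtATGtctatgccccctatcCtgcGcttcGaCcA
Serpina1b (chr12:104966534-104966593, minus strand): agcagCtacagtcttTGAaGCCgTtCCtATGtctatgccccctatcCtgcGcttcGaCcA
Serpina1c (chr12:105133304-105133363, minus strand): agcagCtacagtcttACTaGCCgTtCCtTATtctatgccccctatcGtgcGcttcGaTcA
Serpina1d (chr12:105001972-105002031, minus strand): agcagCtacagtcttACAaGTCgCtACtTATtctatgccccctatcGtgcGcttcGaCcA
Serpina1e (chr12:105185310-105185369, minus strand): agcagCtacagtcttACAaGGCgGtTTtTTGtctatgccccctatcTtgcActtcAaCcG

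In WT mice the tissues used different parts of the family. All serpins together took 1.67% to 1.90% of the counts on genes in the 5 WT livers, 0.344% to 0.472% in the WT skins and 0.0626% to 0.0955% in the WT brains. Clade a made up most of the liver share (1.12% to 1.35%), clade h, which is Serpinh1 alone, most of the skin share (0.232% to 0.340%), and clades e and i most of the brain share. Of the 48 members tested among WT tissues, 34 were called higher and 4 lower in liver than in brain at an adjusted p under 0.1 (edgeR quasi-likelihood test, Benjamini-Hochberg over all genes). Among all 17071 genes tested, 40.2% were called higher and 43.3% lower. Against skin, liver was higher for 22 members and lower for 21, where 32.5% and 39.8% of all genes were called. Skin was higher than brain for 32 and lower for 4, where 40.3% and 39.1% of all genes were called. The normalization weighed on these numbers, since the scaling factors of the liver libraries lay between 0.681 and 0.749 and those of the other tissues between 1.109 and 1.263. CPM values printed here do not carry these factors. A mouse block changed few calls between WT tissues. With the block, Serpinb12 and Serpinb8 were also called between liver and brain (40 members in all), and Serpinb1b lost its call between skin and brain (35 in all).

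**Figure D2:**
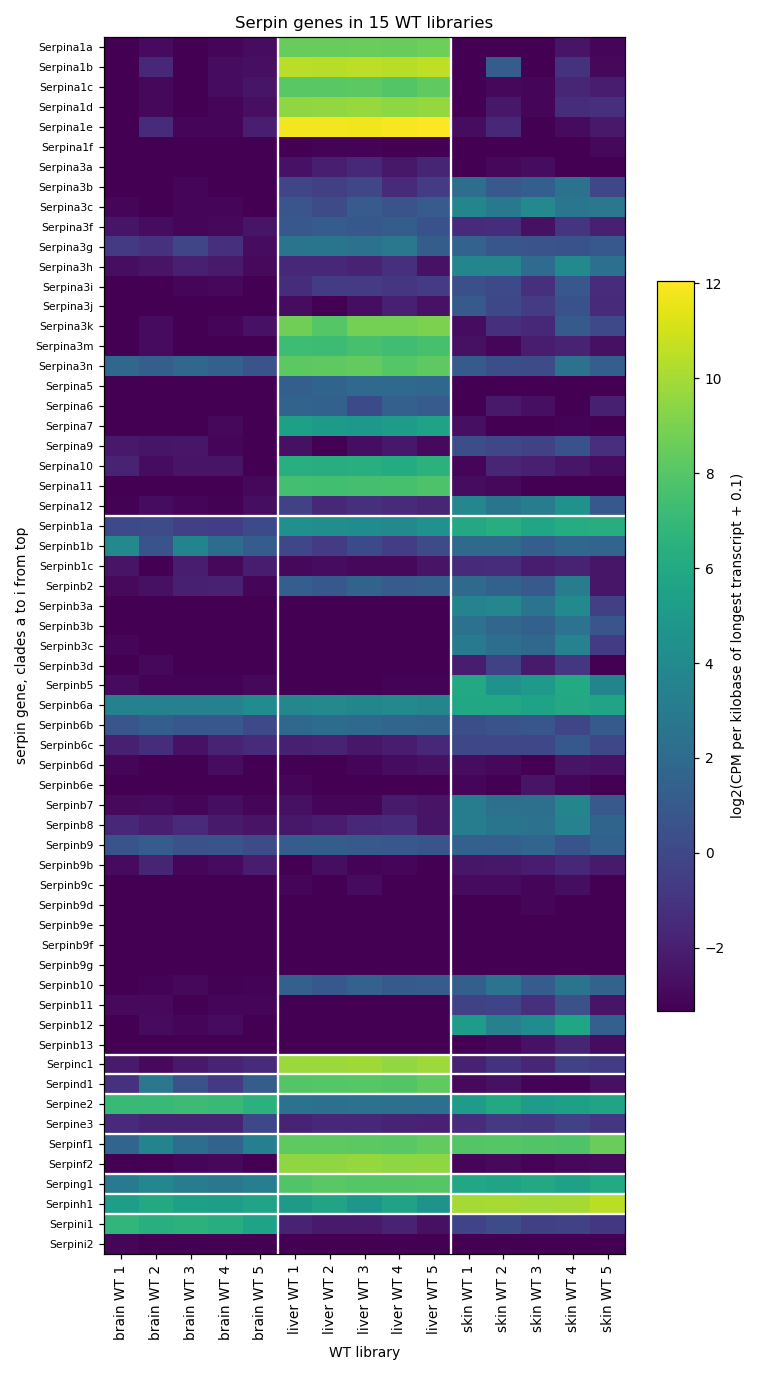
Level of serpin genes (rows, clades a to i from the top) in the 15 WT libraries (columns), as log2 of CPM per kilobase of the longest transcript plus 0.1. The antitrypsin genes and Serpinc1, Serpind1 and Serpinf2 fill the liver columns. Serpinb3a, Serpinb3b, Serpinb3c, Serpinb5, Serpinb7, Serpinb8, Serpinb12 and Serpinh1 are brightest in the skin columns, and Serpine2 and Serpini1 in the brain columns.

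Clade a was the liver clade. Of its 24 members, 15 were called higher in WT liver than in both other tissues, as were 24.8% of all genes tested. The highest level per length was that of Serpina1e, an antitrypsin copy, at 3725 ± 346 CPM per kilobase (SD, n = 5), followed by Serpina1b at 1425 ± 62.3 and Serpina1d at 756 ± 41.0, all with the uncertainty of shared sequence. Serpina3k, a kallistatin relative, stood at 427 ± 103 CPM per kilobase and Serpina3n at 299 ± 26.9. Serpina5, the protein C inhibitor, had no count in any WT brain or skin library and 5.15 to 8.22 CPM in WT liver, at least 374-fold higher than skin when 3 counts over the 5 libraries are taken as the floor. The hormone carriers were liver genes too: Serpina6, which binds corticosteroids, had 1.59 to 4.58 CPM, and Serpina7, which binds thyroxine, 68.4 to 109 CPM.

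Part of clade a belonged to the skin instead. Serpina12 (vaspin), Serpina3b, Serpina3c, Serpina3h, Serpina3j and Serpina9 were called higher in WT skin than in both liver and brain. Serpina12 had the highest level per length of the clade there, 10.7 ± 8.10 CPM per kilobase, and Serpina3h followed at 10.2 ± 5.44. In the skin Serpina3h had 4.99 to 20.2 CPM, and in WT liver 0.0868 to 0.403, a log2 difference of -4.86 ± 0.493 (SE, adjusted p = 2.75e-07, edgeR). In the brain the clade was nearly silent, at 4.22 to 9.02 CPM summed over all 24 members. Serpina3n made up most of that, with 3.01 to 6.67 CPM.

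Clade b was the skin clade. Of its 27 members, 10 were called higher in WT skin than in both other tissues, as were 16.9% of all genes tested, and 4 more than in 1 of them. The abundant ones were Serpinb1a, an inhibitor of neutrophil elastase, at 68.0 ± 10.6 CPM per kilobase, Serpinb6a, which inhibits cathepsin G, at 55.9 ± 6.33, and Serpinb5 (maspin) at 38.9 ± 24.0. The value of Serpinb6a depends on its transcript model and falls to 22.7 over the union of its exons. Serpinb3a, Serpinb3b and Serpinb12 had no count in any WT liver, and in skin their means were 15.7, 6.07 and 40.0 CPM. Against the same floor of 3 counts, their skin levels in CPM were at least 883-fold, 341-fold and 2250-fold higher than in the liver. These folds leave out the scaling factors, which would make them smaller. Serpinb6b was called highest in liver, and Serpinb1b in brain, where its 5 WT libraries held 25.6, 2.52, 20.6, 7.13 and 3.54 CPM, a spread of 10.1-fold. The liver held Serpinb1a at 18.97 ± 2.68 CPM per kilobase as its highest clade b member, and the brain Serpinb6a at 12.1 ± 3.09. Over the union of exons the order in the brain turns, with Serpinb1b at 7.0 and Serpinb6a at 4.88 CPM per kilobase.

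There were 8 members that were close to absent everywhere. Serpinb9e, Serpinb9f and Serpinb9g had 0 counts in all 21 libraries, and for the last pair shared sequence limits what could be counted. Serpinb9d and Serpini2 had 2 counts in total, Serpina1f 6, Serpinb6e 7 and Serpinb9c 16. They account for most of the 12 members that passed the filter on low counts in no tissue, together with Serpina3a, Serpinb13, Serpinb1c and Serpinb6d. The other 50 members were tested in at least 1 tissue.

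The smaller clades split by function. The coagulation serpins were liver genes: Serpinc1 (antithrombin) at 855 ± 63.5 CPM per kilobase, Serpinf2 (antiplasmin) at 739 ± 27.2, Serpind1 (heparin cofactor) at 266 ± 30.2 and Serping1 (C1INH) at 252 ± 14.2, each called above both other tissues. Serpinf1 (PEDF) was shared, at 301 ± 18.1 CPM per kilobase in liver and 268 ± 59.0 in skin, against 6.45 ± 4.16 in brain. With the scaling factors, liver was called above skin by 0.88 ± 0.336 on the log2 scale (adjusted p = 0.0297, edgeR). Serpinh1, which assists the folding of collagen in the endoplasmic reticulum, reached 1103 ± 182 CPM per kilobase in skin, above every other serpin there, and 46.9 ± 10.8 in brain and 35.7 ± 11.6 in liver, where the last pair was not called (log2 difference of liver over brain in the fit, with its scaling factors, 0.39 ± 0.225, adjusted p = 0.122, edgeR).

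In the brain Serpine2, Serpini1 and Serpinb1b were called above both other tissues, as were 31.7% of all genes tested. Serpine2 (protease nexin), an inhibitor of thrombin and plasminogen activators, stood at 128 ± 22.5 CPM per kilobase, against 45.3 ± 12.1 in skin and 5.08 ± 0.305 in liver. Serpini1 (neuroserpin), which inhibits tissue plasminogen activator, stood at 82.8 ± 22.6 in brain, 0.735 ± 0.217 in skin and 0.135 ± 0.0551 in liver. All steps in these orders were called (adjusted p of 4.56e-05 or less, edgeR). Both genes also have longer annotated exon unions, over which the brain means are 77.3 and 50.1. Serpind1 had 0.768, 14.96, 2.89, 1.13 and 4.78 CPM in WT brains 1 to 5. WT 2, with the highest value, also had the highest sum over hepatocyte markers other than Ttr, a gene that the choroid plexus expresses strongly. That sum over 10 markers was 39.7 CPM in WT 2 and 21.2 to 33.1 in the other WT brains, and its part in the value of Serpind1 was not tested.

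In the liver, KI mice had higher levels of 8 serpins and a lower level of 1. The 8 were the clade a members Serpina3f, Serpina3g, Serpina3h, Serpina3i, Serpina3n, Serpina7 and Serpina10 and the clade g member Serping1, and the lower one was Serpina5. All 9 had KI libraries outside the range of the 5 WT libraries. Of the 14966 genes tested in liver, 3.89% were called higher and 1.68% lower, against 8 and 1 of the 40 serpins tested. The median log2 fold change of the 40 was 0.23, and that of all genes -0.02. KI libraries lay above all WT libraries for 13 of the 40 and below for 4, where 13.8% and 10.1% of all genes did. Of the 40, 3 would not pass the filter on low counts by their WT libraries alone. Serpina3h, 1 of the 8, and Serpinb9b, 1 of the 13, are among them, so a difference was part of their being counted.

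**Figure D3:**
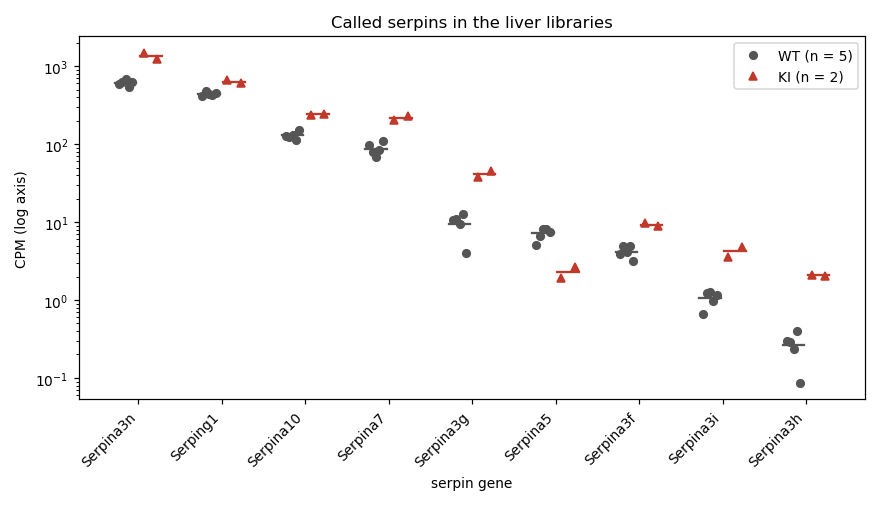
CPM on a log axis of the 9 called serpins in the 2 KI (triangles) and 5 WT (circles) liver libraries, with group means as lines. The KI points lie above all WT points for 8 genes, from 1242 and 1489 CPM for Serpina3n down to 2.05 and 2.08 for Serpina3h, and below them for Serpina5.

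The Serpina3 genes are the mouse expansion of a single antichymotrypsin gene, and 5 of its members were called. Serpina3n, an acute phase inhibitor of cathepsin G and granzyme B, was the most abundant, at 1489 and 1242 CPM in KI livers 1 and 2. WT livers 1 to 5 held 598, 624, 692, 538 and 629 CPM, all below both KI values. Its log2 fold change was 1.13 ± 0.124 (SE, adjusted p = 0.00365, edgeR quasi-likelihood test). Serpina3g, an inhibitor of cysteine cathepsins, had 37.6 and 45.3 CPM in KI and 10.6, 10.97, 9.43, 12.6 and 4.02 CPM in WT. The groups were well apart, with a log2 fold change of 2.11 ± 0.303 (adjusted p = 0.01, edgeR).

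The other 3 called Serpina3 members were scarce transcripts. Serpina3f had 9.70 and 8.90 CPM in KI against 3.86, 4.87, 4.09, 4.99 and 3.12 in WT, a log2 fold change of 1.14 ± 0.194 (adjusted p = 0.0203, edgeR). Serpina3i had 3.57 and 4.82 CPM against 0.663, 1.22, 1.26, 0.962 and 1.16, a log2 fold change of 1.97 ± 0.300 (adjusted p = 0.0125, edgeR). Serpina3h, annotated as a transcript without a protein, had 2.08 and 2.05 CPM against 0.301, 0.286, 0.233, 0.403 and 0.0868, a log2 fold change of 2.95 ± 0.446 (adjusted p = 0.012, edgeR). Serpina3h passed the filter on low counts only through its KI libraries, so a difference was part of its being tested. None of the called members was among the uncertain paralogs, with 87.2% to 100% of their windows unique.

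These genes sit side by side. Of the 24 clade a genes, 23 lie in 1 cluster on chromosome 12 (mm9, 104854885 to 105652539), and only Serpina7 lies elsewhere, on the X chromosome (135613796 to 135619775, minus strand). Serpina3f (105452754 to 105459339), Serpina3g (105474455 to 105480149), Serpina3h (105486115 to 105491879) and Serpina3i (105501332 to 105507582) follow one another on the plus strand. Of the 23, 19 were tested in liver, 6 were called higher and 1 lower, where 3.89% and 1.68% of all genes tested were. Serpina3h, 1 of the 6, passed the filter on low counts only through its KI libraries. Serpina3j, next in the row after Serpina3i, did not pass the filter. Serpina3k and Serpina3m, next after it, were not called (log2 fold changes -0.85 ± 0.419 and 0.14 ± 0.142). Serpina3k had 188 CPM in KI 1 and 613 in KI 2, against 421 to 870 in WT, so only KI 1 lay below the WT range. Serpina3n (105644939 to 105652539) closes the cluster.

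**Figure D4:**
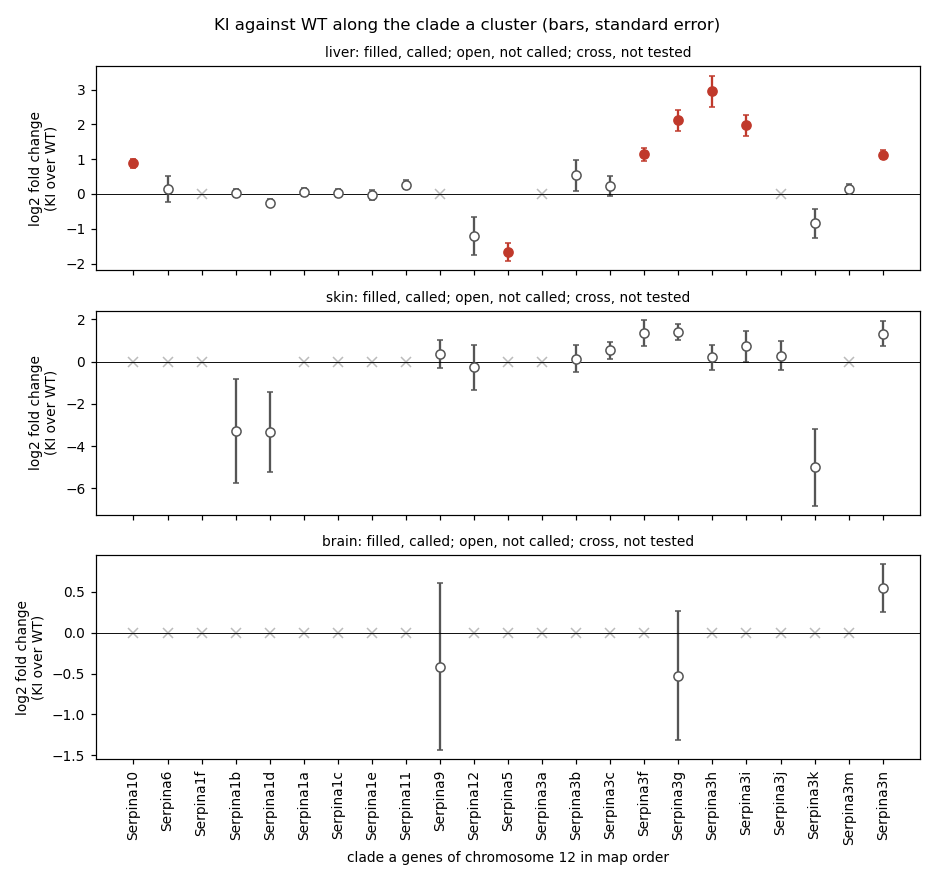
Log2 fold change of KI over WT with its standard error (vertical axis) for the 23 clade a genes of chromosome 12 in map order (horizontal axis), in liver, skin and brain. Filled points are called and crosses mark genes not tested. In liver the run from Serpina3f to Serpina3i lies between 1.14 and 2.95, and the 5 antitrypsin genes lie between -0.25 and 0.06.

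Starts of transcription for 52 of the 62 members were found in the RefSeq promoter table of build GRCm38.p6, 6 of the 9 called members among them (Serpina3h, Serpina10 and Serping1 were not). The letters TTCNNNGAA, the core that STAT factors bind, were searched on both strands in the 250 bases before each start. They occur in 8 of the 52 members, against 8.13% of the promoters of 27025 genes in the table. The 8 are Serpina11, Serpina1f, Serpina3f, Serpina3g, Serpina3i, Serpinb2, Serpinb6a and Serpinb9c, so 3 of the 6 called members with a promoter hold them. The narrower TTCCNGGAA occurs in Serpina11 and Serpinb6a, against 1.09% of all genes, and TTGCNNCAA, a C/EBP core, in none, against 1.98%. The NF-kB consensus occurs in 8 members, Serpina3f, Serpina3i and Serpina3n among them, against 19.7%, and the HNF1 consensus in none, against 0.011%. A match describes these letters only. Serpina3f, Serpina3g and Serpina3i come from the same gene expansion, and the letters that follow the TTCNNNGAA match are shared among them. Their 3 matches are therefore not independent of one another in these counts. Serpina5 and Serpina7, also called and with a promoter, hold no TTCNNNGAA match and are not printed. The sequences of Serpina3f, Serpina3g, Serpina3i and Serpina3n are printed as the called Serpina3 members with a promoter, with TTCNNNGAA matches in capitals (the 250 bases before the start, GRCm38.p6, 5′ to 3′).
Serpina3f (chr12:104214294-104214543, plus strand): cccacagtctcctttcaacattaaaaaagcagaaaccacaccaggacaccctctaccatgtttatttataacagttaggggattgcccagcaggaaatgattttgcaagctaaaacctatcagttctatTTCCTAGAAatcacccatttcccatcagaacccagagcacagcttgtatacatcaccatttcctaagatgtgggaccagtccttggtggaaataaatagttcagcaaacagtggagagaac
Serpina3g (chr12:104235897-104236146, plus strand): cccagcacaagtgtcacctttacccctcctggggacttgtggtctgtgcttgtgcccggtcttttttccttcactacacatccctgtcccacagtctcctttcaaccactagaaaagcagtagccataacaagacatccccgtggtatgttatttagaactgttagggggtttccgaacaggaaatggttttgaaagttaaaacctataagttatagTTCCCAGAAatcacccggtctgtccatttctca
Serpina3i (chr12:104262872-104263121, plus strand): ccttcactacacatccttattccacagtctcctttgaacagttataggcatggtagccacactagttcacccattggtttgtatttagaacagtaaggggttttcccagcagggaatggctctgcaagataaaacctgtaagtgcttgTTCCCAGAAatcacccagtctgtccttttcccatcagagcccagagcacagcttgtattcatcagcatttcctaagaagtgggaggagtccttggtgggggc
Serpina3n (chr12:104406458-104406707, plus strand): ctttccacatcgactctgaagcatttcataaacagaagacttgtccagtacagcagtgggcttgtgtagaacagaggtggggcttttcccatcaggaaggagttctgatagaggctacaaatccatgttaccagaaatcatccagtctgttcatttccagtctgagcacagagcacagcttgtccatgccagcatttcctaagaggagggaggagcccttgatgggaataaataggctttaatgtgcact
In Serpina3f, Serpina3g and Serpina3i the match lies 121, 33 and 102 bases before the start, and Serpina3n holds none in this window. Of the starts the table gives for Serpina3f, the upstream one is shown.

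The remaining called members of clade a have other roles. Serpina7, the thyroxine carrier, had 205 and 232 CPM in KI livers and 98.1, 78.5, 68.4, 84.4 and 109 in WT livers, a log2 fold change of 1.30 ± 0.161 (adjusted p = 0.00569, edgeR). Serpina10, which inhibits factor Xa with protein Z, had 239 and 243 CPM in KI against 127, 125, 132, 112 and 152, a log2 fold change of 0.88 ± 0.124 (adjusted p = 0.00992, edgeR). Serpina5, the protein C inhibitor, went the other way with 1.93 and 2.63 CPM in KI against 5.15, 6.62, 8.14, 8.22 and 7.55, a log2 fold change of -1.67 ± 0.266 (adjusted p = 0.0153, edgeR). Serping1, which blocks the complement proteases C1r and C1s, had 662 and 600 CPM against 420, 483, 444, 425 and 453. Its change was the smallest of the 9, at 0.49 ± 0.1 on the log2 scale (adjusted p = 0.0389, edgeR).

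The other 31 serpins tested in liver were not called. The antitrypsin copies Serpina1a, Serpina1b, Serpina1c and Serpina1e had log2 fold changes between -0.04 and 0.06, and Serpina1d of -0.25 ± 0.105 (adjusted p = 0.256, edgeR). Antithrombin, heparin cofactor and antiplasmin had 0.08 ± 0.109, 0.02 ± 0.137 and 0.16 ± 0.0929. Another 3 members that missed the threshold had KI libraries outside the WT range and at least 2-fold off. Serpinb9b, of the granzyme inhibitor group, had 0.404 and 0.578 CPM in KI against 0, 0.156, 0.0332, 0.062 and 0, a log2 fold change of 3.13 ± 0.879 (adjusted p = 0.102, edgeR), and passed the filter only through KI. Serpina12 had 0.404 and 0.722 CPM against 2.56, 0.886, 1.26, 0.993 and 0.810, and Serpinb8 0.155 and 0.231 against 0.301, 0.391, 0.731, 0.838 and 0.260. Their log2 fold changes were -1.20 ± 0.543 and -1.38 ± 0.670.

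The liver calls rest on 2 KI mice, which differed in Y-linked transcripts. With these transcripts as a covariate all 9 were still called. Without KI 1, 6 of the 9 were still called, and Serpina3f, Serpina5 and Serping1 were not (adjusted p of 0.144, 0.131 and 0.24, edgeR). Without KI 2 only Serpina3n was called (adjusted p = 0.0279), while the log2 fold changes of the 9 stayed between -1.89 and 2.98 with the same signs. With all 21 libraries in 1 fit, Serpina3g, Serpina3h and Serpina7 were called. Blood cell transcripts moved with the genotype in liver, where 3.89% of all genes tested were called higher and 1.68% lower. Summed over 9 macrophage markers, KI livers held 2006 and 2091 CPM and WT livers 1325 to 1577, and 6 of the 9 were called higher. Over 10 neutrophil markers KI livers held 6494 and 7785 CPM and WT livers 4015 to 5266, and 5 of the 10 were called higher. Over 11 hepatocyte markers KI livers held 229300 and 235400 CPM and WT livers 230300 to 260800, and none was called (edgeR). With the neutrophil markers as a covariate, chosen after seeing the data, none of the 9 was called (adjusted p of 0.245 to 0.381), their log2 fold changes lying between -1.34 and 3.78. With the macrophage markers, also chosen after seeing the data, only Serpina7 was called (adjusted p = 0.0482), and the 9 kept their signs. The log2 fold changes of Serpina7, Serpina10 and Serpina5 were then 2.11, 1.10 and -1.84, farther from 0, and those of the other 6 were nearer to 0, from 0.33 for Serping1 to 2.18 for Serpina3h. Both marker sums separate KI from WT, so in 7 libraries they cannot be told apart from the genotype. Of the other marker lists, 1 of 8 tested T and NK cell genes (Gzma) and 1 of 6 megakaryocyte genes (Itga2b) were called higher and 2 of 6 erythroid genes (Rhag and Slc4a1) lower, while neuron genes gave 1 higher and 1 lower of 8. None was called among 8 fibroblast, 4 skeletal muscle, 4 choroid plexus and 4 keratinocyte genes tested.

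Genes that work with serpins were read from lists. Of all genes tested in liver, 3.89% were called higher and 1.68% lower. Of 33 protease targets tested in liver, 5 were called higher, namely C1ra, Ctsg, Ctss, Gzma and Prtn3, and none lower, with a median log2 fold change of 0.04. Ctss, a cysteine cathepsin, had 211 and 193 CPM in KI against 96.5 to 123 in WT, a log2 fold change of 0.85 ± 0.123 (adjusted p = 0.0101, edgeR). Prtn3 and Ctsg are proteases of neutrophil granules and Gzma of cytotoxic lymphocytes. C1ra, the partner of Serping1, had 0.38 ± 0.098 (adjusted p = 0.0784). Of 17 cofactors and receptors, Plaur and Pros1 were called higher, with a list median of 0.28. Of 18 acute phase genes, Cp, Hpx, Itih3, Lrg1, Socs3 and Stat3 were called higher and none lower, with a median of 0.46. Hp, C3, Apcs, Orm1 and the fibrinogen genes Fga, Fgb and Fgg were among those not called. Socs3, a feedback inhibitor of JAK signalling, had 75.6 and 84.0 CPM in KI against 8.68 to 27.3 in WT, a log2 fold change of 2.09 ± 0.314 (adjusted p = 0.012).

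In the skin no serpin was called among the 39 tested (edgeR). At an unadjusted p under 0.05, 3 were higher and 1 lower, as were 2.89% and 1.68% of all genes, and DESeq2 called 1. Of the 16163 genes tested, 0.0247% were called higher and 0% lower. KI libraries lay above all WT libraries for 4 members and below for 2, where 3.98% and 5.85% of all genes did. Serping1 had 141 and 156 CPM against 106, 89.5, 112, 79.5 and 117, a log2 fold change of 0.58 ± 0.174 (adjusted p = 0.819). Serpina3g had 4.88 and 11.8 CPM against 4.96, 2.96, 2.58, 2.43 and 3.25, and KI 1 lay within the WT range.

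Serpina3n and Serpina3f, called in liver, had KI skin values just above the WT range. Serpina3n had 12.04 and 11.85 CPM against 4.00, 2.47, 2.12, 10.8 and 4.78, a log2 fold change of 1.32 ± 0.581. Serpina3f had 1.18 and 1.55 CPM against 0.595, 0.696, 0.143, 0.953 and 0.349, a log2 fold change of 1.35 ± 0.617 (both adjusted p = 0.999, edgeR). The liver serpins Serpinc1 and Serpina3k were at trace levels in skin, with KI values below the WT range. Serpinc1 had 0.280 and 0.276 CPM against 0.363, 0.800, 0.458, 1.53 and 1.19, with a log2 fold change of -1.61 ± 0.705. Serpina3k had 0.0622 and 0 CPM, or 2 counts in all, against 0.0661, 0.557, 0.401, 3.21 and 1.57. Neither passed the test (both adjusted p = 0.999, edgeR). The hepatocyte markers had a median log2 fold change of -1.68 over 9 tested, with none called. Alb (albumin) had 3.33 and 2.34 CPM in KI against 2.81, 5.67, 4.64, 29.01 and 14.98. Trf, another of these markers, was not lower, with 1070 and 2742 CPM in KI against 1328, 697.2, 1470, 315.1 and 589.4. It made up most of the marker sum, which was 1076 and 2745 CPM in KI and 356.6 to 1477 in WT. WT 4 and WT 5 were the highest for Alb and for both serpins, and the part of hepatocyte transcripts in the values was not tested. None of 29 protease targets and 15 cofactors was called in skin, and of 18 acute phase genes Lrg1 alone was called higher.

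Several clade b serpins varied among the skin libraries along with the keratinocyte markers. Over the 7 skin libraries, 8 of the 18 clade b members tested had a Pearson correlation above 0.8 with the mean log2 CPM of 11 keratinocyte markers, from 0.88 for Serpinb2 to 0.99 for Serpinb12 and Serpinb7. The points share library and depth, and the relation is given as a description. Serpinb12, a serpin of keratinized epithelia, had 89.2 and 2.21 CPM in KI and 59.1, 17.3, 30.4, 89.0 and 4.19 in WT, and KI 2 and WT 5 were the lowest, as they were for the markers. In clade a, Serpina12 and Serpina9 did the same, and Serpina12 had 61.0 CPM in KI 1 and 3.93 in KI 2. Serpinb1a and Serpinb6a did not, with correlations of -0.66 and 0.20. None of the 11 markers was called between KI and WT.

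**Figure D5:**
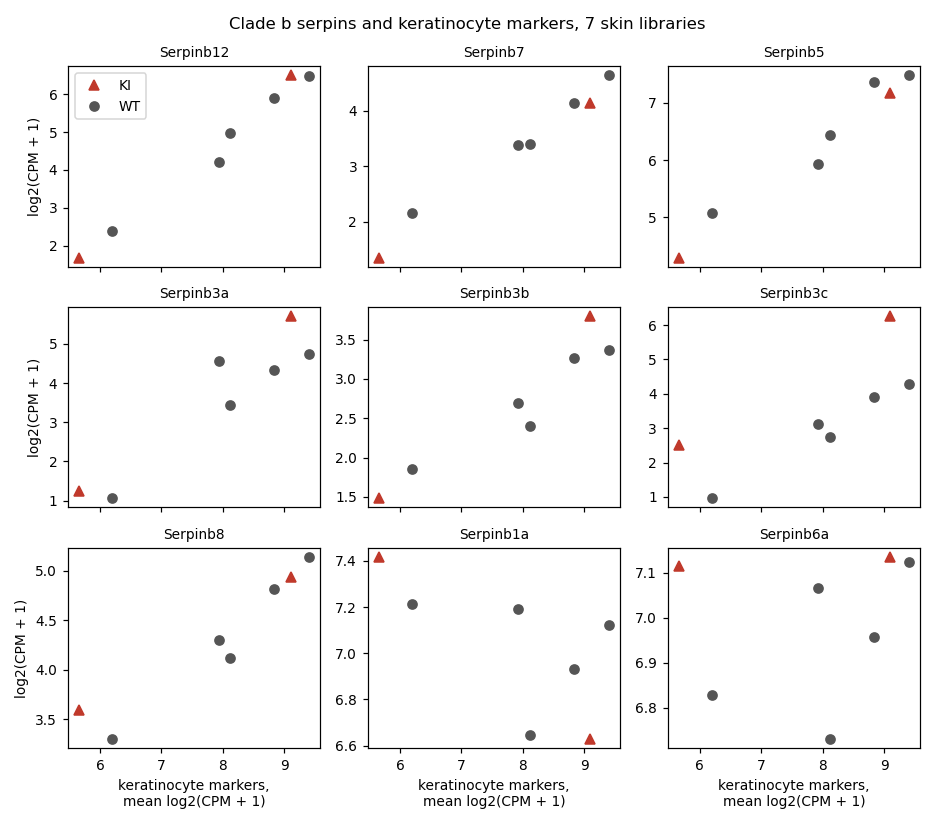
Level of 9 clade b serpins as log2(CPM + 1) (vertical axes) against the mean log2(CPM + 1) of 11 keratinocyte markers (horizontal axis) in the 2 KI (triangles) and 5 WT (circles) skin libraries. The first 7 panels rise with the markers, from 5.67 in KI 2 to 9.40 in WT 4, and Serpinb3c in KI 1, at 75.5 CPM, lies above all WT libraries.

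Serpinb3c, named after its values were seen, was uneven between the KI mice. It had 75.5 CPM in KI 1 and 4.76 in KI 2, against 13.9, 7.69, 5.76, 18.4 and 0.943 in WT. In KI 1 its neighbours Serpinb3a and Serpinb3b, at 51.3 and 12.9 CPM, were also above their highest WT values of 25.6 and 9.30 CPM. The log2 fold change of Serpinb3c was 2.13 ± 1.04 (adjusted p = 0.999, edgeR). With the keratinocyte markers as a covariate, chosen after seeing the data, it was 2.43 and was called (adjusted p = 0.0872). It was the only serpin called in that fit.

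In the brain no serpin was called among the 21 tested (edgeR), none had an unadjusted p under 0.05, where 2.8% of all genes were higher and 7.81% lower at that level, and DESeq2 called none. Of the 16322 genes tested 0% were called in either direction. KI libraries lay above all WT libraries for 1 serpin and below for 1, where 13% and 14.3% of all genes did. The first was Serpina3n, with 7.33 and 8.37 CPM in KI and 6.67, 5.01, 6.64, 5.13 and 3.01 in WT, a log2 fold change of 0.54 ± 0.294 (adjusted p = 0.572). The second was Serpinb6a, with 19.9 and 19.3 CPM against 23.5, 23.9, 22.5, 23.7 and 38.5, a log2 fold change of -0.47 ± 0.267 (adjusted p = 0.592). For both main brain serpins the KI values lay within the WT range: Serpine2 had 285 and 281 CPM in KI against 207 to 340, and Serpini1 had 287 and 258 against 202 to 447. Without WT 5, the brain library that stood apart, no serpin was called either, while 672 genes were called higher and 1026 lower of 16222. No protease target (18 tested), cofactor (17) or acute phase gene (8) was called, nor was a gene of any marker list.

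Whether the KI effect on a serpin differed between tissues was tested directly over all 21 libraries. No serpin among 51 was called in any of the 3 tests (edgeR), where 0.0997% of all 18062 genes were called between liver and skin, 2.81% between liver and brain and 0% between skin and brain. At an unadjusted p under 0.05, 5 serpins were higher and 1 lower in liver than in skin, 5 and 1 in liver than in brain, and 2 and 2 in skin than in brain. Of all genes, 2.44% were higher and 3.11% lower at that level between liver and skin, 7.25% and 7.89% between liver and brain, and 4.12% and 3.29% between skin and brain. DESeq2 called 2 between liver and brain and none in the other tests. The 2 were Serpina3g and Serpina3h, whose effects in liver exceeded those in brain by 2.55 ± 0.811 and 3.21 ± 1.04 on the log2 scale (edgeR adjusted p = 0.133 and 0.141). Serpina3h had 23 counts over all brain libraries and did not pass the filter of the brain comparison, so its brain value lies near the floor. In liver it passed that filter only through KI. With the mouse as a block, Serpina3h was called (adjusted p = 0.0793), and without WT 5, Serpina3g was (adjusted p = 0.035). Between liver and skin Serpina3h had the largest difference among the called liver genes, 2.73 ± 0.806 (adjusted p = 0.484). The changes of Serpina3n in liver and skin, 1.13 and 1.32, differed by -0.21 ± 0.591 in the joint fit (adjusted p = 1).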

How the data were processed

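The deposited values are raw read counts per gene symbol, 1 file per library, made by the authors from paired-end reads of poly(A) libraries whose kit does not mark strand. The submitters' processing notes name mm9, TopHat2 and HTSeq, with DESeq for their own comparisons. Versions, the annotation and the strand setting of counting are not given in the sources used here. Reads with more than 1 alignment (17.1% to 25.4% per library) were set aside before counting, which lowers the counts of close paralogs.

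Serpin symbols, the lists of related genes and the tests were chosen with earlier results of these data known. Within each tissue KI was compared with WT with edgeR 4.0.16, run under R 4.3.3 (quasi-likelihood F-test, filterByExpr, TMM factors, Benjamini-Hochberg over all genes). The 15 WT libraries were compared between tissues in 1 fit, and differences of the KI effect in a fit of all 21. A gene was called at an adjusted p under 0.1, and ± after a log2 fold change is its standard error. DESeq2 1.42.0 was an alternative. Named with all their values were called members, members not called with KI on one side of WT and a log2 fold change of at least 1, and the leading member of each clade per tissue. The fits were first tested on simulated data. There edgeR recovered 78% of 2-fold changes in liver, 39% in skin and 37% in brain. For the difference of the KI effect between liver and skin it recovered 19%. A lack of calls in skin, in brain or for the differences therefore does not show a lack of change.

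Libraries with the same number and genotype come from the same mouse by their labels, and the correlation of their deviations in WT lay between 0.00198 and 0.188. Between KI and WT only numbers 1 and 2 are shared, with correlations from -0.0952 to 0.198. Libraries of the same mouse correlated no more strongly than this. The check therefore cannot show whether a number shared by KI and WT marks a litter or batch, and the labels do not say. Transcript windows of 75 bases were searched in the NCBIM37 genome with Python 3.11.15, and levels per kilobase use the longest transcript. Promoters are those of RefSeq for GRCm38.p6. Intervals and floors of 3 counts cover counting error only. The values of 1 clade e member are not reported here, though it is included in the counts.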

Additional observations from a re-analysis of the deposited data

Results flagged for a closer look

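In 5 of 42 groups of 5 WT libraries tested, 1 library lay far from the others by Dixon's criterion, which chance alone gives in about 1 in 20 groups. Serpina12 (vaspin) had 2.56 CPM in the liver of WT 1, where the lowest WT liver had 0.81. Serpinb6a had 38.49 CPM in the brain of WT 5, the brain library that stood apart over all genes, and 22.5 in the lowest WT brain. Serpind1 (heparin cofactor) had 14.96 CPM in the brain of WT 2 and 0.7678 in the lowest WT brain. That library also had 949 CPM summed over fibroblast markers, where the other WT brains had 224 to 386 and the KI brains 484.7 and 531.6, and the part of this in the value was not tested. In the skin of WT 5, Serpinf1 had 680.5 CPM and Serpinh1 3399 CPM, where the lowest WT skins had 419.3 and 2318. WT 5 was the WT skin with the lowest keratinocyte markers, and their part in these values was not tested.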

How the results depend on the processing

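Of the counts of called serpins under other settings, 97 stayed within 1.5 times the reported count and 10 did not. In liver, the 9 calls became 3 with all 21 libraries in 1 fit, 1 with the macrophage covariate and 0 with the neutrophil covariate, and leaving out 1 library gave 1 to 10, the lowest without KI 2 and the highest without WT 2, WT 4 or WT 5. The covariates were chosen after seeing the data. In skin, DESeq2 called 1 and the keratinocyte covariate 1 (Serpinb3c) in place of 0. The comparison of skin KI 1 with WT 1 to 4, with 1 KI library so that only WT gives the spread, is a value with little power and gave 0. For the difference of the KI effect between liver and brain, DESeq2 called 2, the mouse as a replicate block 1, and leaving out 1 mouse gave 0 to 1, in place of 0. Leaving out 1 library or mouse gave 0 in brain, in skin and for the other differences. Serpinb8 in liver turned from -1.38 to 0.184 on the log2 scale with the neutrophil covariate.

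KI and WT libraries share only the numbers 1 and 2. With that number as a replicate block, brain gave 1 call in place of 0 (Serpini1, log2 fold change -0.54, adjusted p = 0.0343, edgeR), liver 9, losing Serping1 and adding 1 other, and skin 0. Between WT tissues the mouse as a block gave 40, 43 and 35 calls for liver and brain, liver and skin, and skin and brain, in place of 38, 43 and 36. With 100-base windows, closer to the read length in the methods of the study, 6 paralogs in place of 7 fell below 80%. Serpina1e rose above the line, to 85.2%, while Serpinb9f had 50.9% and Serpinb9g 73.7%. Over the union of exons in place of the longest transcript, 9 leading levels moved beyond 1 SD. In WT liver Serpina3h rests on 44 counts over 5 libraries, so its fold change is the least certain of the called ones in depth.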
